A study of Mus musculus with 96 samples.

Results

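Lipopolysaccharide (LPS) and 2-methyl-thio-ATP (2MA) were given together for 4 h to RAW 264.7 cells, a macrophage-like mouse line. Total RNA of the treated cells and of untreated cells kept for the same time were hybridised to 2-colour arrays. The 6 arrays of this treatment, of 96 in the series, were chosen by their labels, and no measured value entered the choice. They form 3 sets, each hybridised in both dye orders. LPS was given at 100 ng, with no volume stated, with 100 pM LPS-binding protein, and 2MA at 500 uM by the channel labels. The treatment was set against LPS alone at 4 h (the same LPS and LPS-binding protein), 2MA alone at 4 h (500 uM), and LPS with 2MA at 1 h and 2 h, each with 6 arrays in 3 sets. All groups are of the same line, each against untreated cells, and the untreated cells received no ligand by the labels. A value below is the log2 ratio of treated to untreated RNA, averaged over both dye orders of a set, so that 1 is a 2-fold rise and -1 a 2-fold fall. No label says whether the 3 sets were separate cultures, or whether 1 untreated RNA served several treatments. The p-values therefore measure only how far set values scatter within groups, and this scatter may be technical in origin. In the main fit it was pooled over 48 set values of 16 groups, including treatments not described here.

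LPS is sensed by Toll-like receptor 4 with the co-receptors CD14 and MD-2. One arm of that receptor's signalling, through MyD88, drives NF-kB and MAP kinases and the first inflammatory cytokines. The other, through TRIF, drives interferon beta, which acts back on the cell to induce antiviral genes. 2MA is an analogue of ATP that acts on P2 purinergic receptors, through which extracellular nucleotides raise calcium in macrophages. The design allows the joint response to be read against each ligand alone and against the same pair of ligands at earlier times.

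Each of the 6 arrays gave values for 14379 to 14880 of its 16281 probes. The dye orders of a set correlated at -0.69, -0.56 and -0.74 across probes before the sign was turned. Across genes, the set values correlated at 0.90 (sets 1 and 2), 0.90 (sets 1 and 3) and 0.84 (sets 2 and 3). Ratios hold no expression level, so the cell type cannot be read from abundance. Of 10 macrophage markers 7 were tested, and Lyz2, Itgam and Mpeg1 were not. Adgre1 (F4/80) rose to 0.89 ± 0.26 (SD, n = 3) and Fcgr1 to 1.97 ± 0.20 (SD, n = 3), Cd14 had -0.01, and Csf1r, the receptor for macrophage colony-stimulating factor, fell to -1.08 ± 0.42 (SD, n = 3). None of 22 tested markers of fibroblasts, T cells, B cells, neutrophils or epithelia passed the test, and 1 of them, the neutrophil gene Elane, did with the set as a random block (adjusted p = 0.037). Their means lay between -0.25 (S100a8) and 0.37 (Elane), against an overall median of -0.01.

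The joint treatment moved a large share of the measured genes, and the largest rises were in interferon-induced genes, inflammatory cytokines and their regulators. Of 11593 genes tested with limma, 3872 (33.4%) had an adjusted p under 0.05, of which 1730 (14.9% of those tested) rose and 2142 (18.5%) fell. A change of at least 2-fold was seen in 764 of them, 544 up and 220 down, so the falls were more numerous but smaller. The 20 largest rises among tested genes with the same sign on all 6 arrays had means between 4.02 and 5.74. Their single arrays spanned 3.11 to 6.17, and their SD over sets 0.070 to 0.71. The same 20 genes had means of 3.20 to 5.47 with LPS alone and -0.03 to 1.39 with 2MA alone at 4 h. None of the 20 passed against LPS alone, and with the set as a block 3 did.

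**Figure D1:**
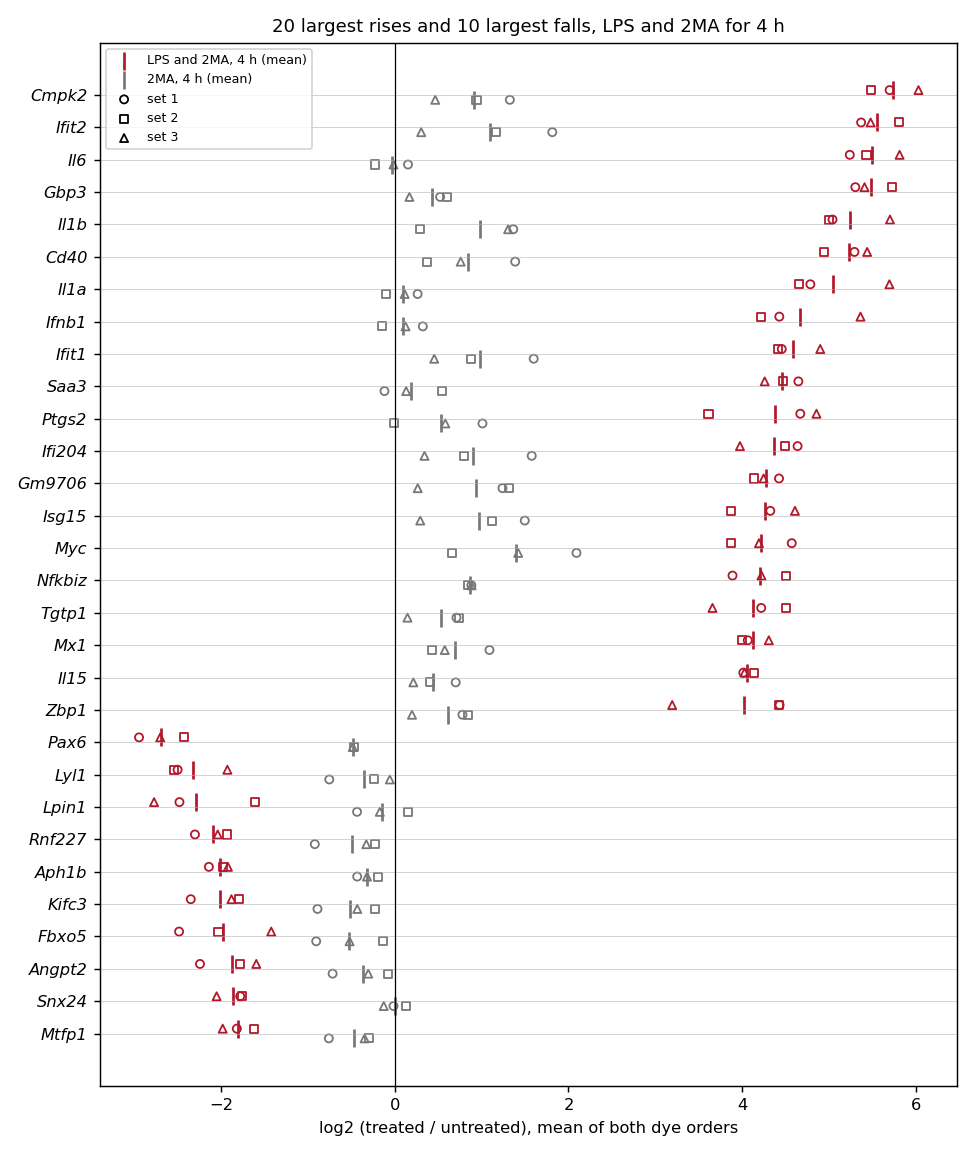
The 20 largest rises and 10 largest falls after 4 h of LPS and 2MA (red) and the same genes with 2MA alone (grey), as log2 of treated over untreated RNA. Open symbols are the 3 sets, each the mean of both dye orders, and vertical bars are their means. The rises with LPS and 2MA have means between 4.02 and 5.74, whereas the 2MA means of the same genes run from -0.03 to 1.39.

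Cytokine genes made up much of the top of the ranking. Of 19 tested cytokines and growth factors 16 rose and none fell, with a median of 2.22 beside -0.01 over all genes tested. Il6, the acute-phase cytokine, had 5.24, 5.43 and 5.82 in sets 1, 2 and 3, a 45.2-fold mean rise. Il1b, the interleukin released after inflammasome cleavage, had 5.04, 5.00 and 5.71, and Il1a 4.79, 4.66 and 5.70. Set 3 was the highest in all 3 of these genes, and the lowest single array of any of them was 4.22 (Il1a). Ifnb1, the interferon that carries the antiviral response to neighbouring cells, had 4.43, 4.22 and 5.37, and Tnf 2.83, 3.56 and 4.43. Tnf spread over more than a 2-fold range between sets, with set 1 lowest and set 3 highest. Il15, which supports natural killer cells, had the tightest sets of the 20 largest rises at 4.01, 4.14 and 4.03. Il18 rose to 3.15 ± 0.46 (SD, n = 3), Csf3 (granulocyte colony-stimulating factor) to 3.88 ± 0.84 (SD, n = 3) and Il10, which restrains inflammation, to 2.22 ± 0.34 (SD, n = 3). Il12a, Il12b and Vegfa did not pass the test, at -0.03, 0.29 and -0.15. Il27, Osm and Il1rn, also listed, were not tested.

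Chemokines followed the same direction, with 8 of 9 tested higher and a median of 2.00. Ccl4, a CC chemokine, rose to 4.13 ± 0.12 (SD, n = 2), Ccl12, a monocyte attractant, to 3.11 ± 0.29 (SD, n = 3) and Cxcl16, a membrane-bound chemokine, to 2.00 ± 0.04 (SD, n = 3). Cxcl1, a neutrophil attractant, had 0.15 and did not pass. Ccl2, Ccl3, Cxcl2, Cxcl10 and Cxcl11 were not tested. The receptors of these pathways moved both ways: 12 of 21 rose and 4 fell. Cd40, the co-stimulatory receptor engaged by T cells, had 5.30, 4.95 and 5.44, Fas, a death receptor, 4.23, 3.83 and 3.62 and Tnfrsf1b, a receptor of tumour necrosis factor, 3.36, 3.36 and 3.63. The interleukin 15 receptor chain Il15ra rose with its ligand, to 2.70 ± 0.06 (SD, n = 3). Those that fell were Csf1r at -1.08, the fractalkine receptor Cx3cr1 at -0.83, Ifngr1 at -0.71 and Il6ra at -0.70. The call of Cx3cr1 was lost without set 1 or set 2, and with the set as a random block (adjusted p = 0.061), which left 3 falls. The 3 probes of Il6ra disagreed, with means of -1.39, -0.94 and 0.23.

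Every one of the 18 tested members of the type I interferon list rose, with a median of 3.22 and a range of 0.59 to 5.74. Cmpk2, a mitochondrial nucleotide kinase that interferon induces, was the largest rise measured under the naming rule. Its set values were 5.70, 5.49 and 6.03, a mean 53.5-fold rise with a fitted value of 5.74 (SE 0.23, adjusted p = 4.7e-22). Ifit2 and Ifit1, which bind foreign RNA, had 5.37, 5.81 and 5.48 and 4.46, 4.41 and 4.90. Isg15, a ubiquitin-like modifier, had 4.33, 3.87 and 4.61, and Mx1, a dynamin-like antiviral GTPase, 4.07, 4.00 and 4.31. Zbp1, a sensor of left-handed nucleic acid, had 4.43, 4.43 and 3.20, with set 3 more than 1 log2 unit below the others. Of the transcription factors that carry the interferon signal, Stat2 rose to 2.63 ± 0.08 (SD, n = 3), Irf7 to 2.08 ± 0.09 (SD, n = 3) and Irf9 to 1.17 ± 0.25 (SD, n = 3). 14 listed members, Rsad2 and Usp18 among them, were not tested.

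The guanylate-binding proteins and immunity-related GTPases, which attack the membranes around intracellular pathogens, had the highest median of any list at 3.94, and all 7 tested members rose. Gbp3 had 5.31, 5.73 and 5.41, Tgtp1 4.22, 4.51 and 3.66, Iigp1 4.37, 4.18 and 3.28 and Gbp8 4.24, 3.82 and 3.78. Set 3 was the lowest in Tgtp1, Iigp1 and Gbp8, but not in Gbp3. Gbp2, Irgm1 and Ifi47 were not tested, since their probes lacked values in some group of the series. Gbp2 had a mean of 5.52 and lay above 0 on all 6 arrays, but was not ranked among the largest rises for that reason. The 2 probes of Gbp3 and those of Tgtp1 lay over 1 apart. These families hold near-identical paralogs that a probe may not separate, which also applies to Ifi204 (4.37) and Gm9706 (4.27). Antigen processing rose more modestly: 13 of 15 tested members rose and none fell, with a median of 0.79. Tap1, which pumps peptides into the endoplasmic reticulum, reached 2.51 ± 0.17 (SD, n = 3), and Psmb10, a catalytic subunit of the immunoproteasome, 1.96 ± 0.29 (SD, n = 3). The class II gene H2-Ab1 and its activator Ciita did not pass, at 0.15 and 0.06.

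RefSeq promoters of build GRCm38.p6, taken here as the 250 bases before each listed start, matched 7757 of the 9755 named genes tested. The core of the interferon-stimulated response element (ISRE), GAAA, any 2 bases and GAAA again, was searched on both strands, and overlapping matches were merged for printing. It lay in 3.4% of the 7757 promoters, in 6 of 13 type I interferon targets with a promoter (46.2%), in 4 of 4 GBP and immunity-related GTPases and in 3 of 11 antigen-processing genes (27.3%). Of 27 cell cycle genes 1 held it (3.7%), and of 11 NF-kB subunits and inhibitors none did. Among the 20 largest rises, 12 had a promoter in the table and 5 of these held the core. The stretches around it in those 5, chosen after the matches were seen, are printed 5′ to 3′ on the gene's strand to show how the core recurs, with matched bases in capitals.
Gbp3 (chr3:142559984-142560029, + strand, match from 45 to 30 bases before the start): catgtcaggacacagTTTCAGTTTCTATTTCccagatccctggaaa
Ifit1 (chr19:34640770-34640809, + strand, match from 104 to 95 bases before the start): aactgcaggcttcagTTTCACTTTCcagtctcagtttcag
Ifit1 (chr19:34640789-34640828, + strand, match from 85 to 76 bases before the start): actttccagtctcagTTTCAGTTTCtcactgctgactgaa
Saa3 (chr7:46715777-46715816, - strand, match from 125 to 116 bases before the start): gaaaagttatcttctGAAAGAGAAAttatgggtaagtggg
Isg15 (chr4:156200860-156200911, - strand, match from 78 to 57 bases before the start): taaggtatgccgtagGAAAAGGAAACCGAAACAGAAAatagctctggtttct
Tgtp1 (chr11:48992299-48992338, - strand, match from 77 to 68 bases before the start): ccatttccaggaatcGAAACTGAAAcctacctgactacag
Ifit1 held the core at 2 separate places, and in Isg15 and Gbp3 the capitals cover 3 and 2 adjoining or overlapping matches. A match is a description of these letters and not a measured binding site.

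Promoters of the 3 largest rises under the naming rule are printed whole, since they differed in what they held. Il6 held the NF-kB core, GGGA, any base and TTTCC, from 44 to 35 bases before its start, and the AP-1 sequence TGANTCA from 249 to 243 bases before it. Both were searched on both strands, and they lay in 0.516% and 7.27% of the 7757 promoters. Neither of these, nor the ISRE core, nor the cAMP response element TGACGTCA (2.33% of promoters) was found in the windows of Cmpk2 or of either listed start of Ifit2, of which the first is shown. Capitals mark the matches in Il6 (chr5:30012864-30013113, + strand), and Cmpk2 (chr12:26468965-26469214, + strand) and Ifit2 (chr19:34550444-34550693, + strand) have none.
Il6: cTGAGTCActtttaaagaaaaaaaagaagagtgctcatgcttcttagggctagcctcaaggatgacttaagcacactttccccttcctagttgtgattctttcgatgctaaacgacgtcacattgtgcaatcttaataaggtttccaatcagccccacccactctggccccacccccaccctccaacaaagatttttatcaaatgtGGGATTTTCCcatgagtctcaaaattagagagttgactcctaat
Cmpk2: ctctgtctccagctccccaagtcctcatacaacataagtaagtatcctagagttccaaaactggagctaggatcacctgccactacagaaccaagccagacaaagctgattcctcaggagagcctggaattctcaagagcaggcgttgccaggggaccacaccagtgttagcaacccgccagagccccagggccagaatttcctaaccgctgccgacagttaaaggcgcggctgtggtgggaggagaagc
Ifit2: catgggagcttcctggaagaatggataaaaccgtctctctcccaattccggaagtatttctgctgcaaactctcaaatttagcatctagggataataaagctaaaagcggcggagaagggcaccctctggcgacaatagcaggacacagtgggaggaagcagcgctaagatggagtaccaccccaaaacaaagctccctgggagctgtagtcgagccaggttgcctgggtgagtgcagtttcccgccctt

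All 13 tested NF-kB subunits and inhibitors rose, with a median of 2.12. Nfkbib, an inhibitor, rose to 1.15 ± 0.22 (SD, n = 3) over both dye orders, but had -0.34 (adjusted p = 0.26) on the arrays with treated RNA in Cy5 alone. Nfkbiz, an inducible co-activator of secondary response genes, had 3.89, 4.50 and 4.22. The inhibitor Nfkbie rose to 2.90 ± 0.33 (SD, n = 3), the ubiquitin-editing brake Tnfaip3 to 2.54 ± 0.25 (SD, n = 3) and the subunit Nfkb2 to 2.41 ± 0.14 (SD, n = 3). Rela, the subunit present before stimulation, changed least of the 13 at 0.43 ± 0.08 (SD, n = 3). Upstream, 10 of 18 tested members of Toll-like receptor signalling rose and 1 fell, with 0 falls without set 1 and 2 without set 2. Tlr3, which senses double-stranded RNA, rose to 3.38 ± 0.12 (SD, n = 3) and Map3k8, the kinase that links NF-kB to ERK, to 2.64 ± 0.17 (SD, n = 3). Tlr4, the LPS receptor, had -0.08, -0.03 and -0.78 and did not pass (adjusted p = 0.094), nor did Cd14 or Ly96, its co-receptor.

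Negative regulators stood high at 4 h as well. Of 13 tested feedback genes of MAP kinases and G proteins 10 rose, led by Rgs16, which shortens G protein signals, at 3.86 ± 0.11 (SD, n = 3) and Zfp36, which destabilises cytokine messages, at 3.70 ± 0.40 (SD, n = 3). Dusp1, the phosphatase of p38 and JNK, had 2.97, 2.99 and 3.13. Of 8 tested suppressors of cytokine signalling 6 rose, with Cish at 2.92 ± 0.28 (SD, n = 3) and Socs1 at 2.29 ± 0.10 (SD, n = 3), while Socs3 had 0.10. Early transcription factors were mixed, with 9 of 22 higher and 3 lower (1 without set 3). Myc had 4.57, 3.88 and 4.20, Egr1 2.85 ± 0.48 (SD, n = 3) and Atf3, a repressor of LPS genes, 2.31 ± 0.17 (SD, n = 3), while Jun fell to -0.64 ± 0.27 (SD, n = 3) and Fos had 0.20.

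Enzymes of the activated macrophage rose strongly. Of 17 tested inflammatory enzymes 12 rose and 2 fell, with 1 fall without set 1 and 0 without set 3. Ptgs2, the inducible prostaglandin synthase, had 4.67, 3.61 and 4.86, with set 2 lowest. Tissue factor, F3, reached 3.88 ± 0.76 (SD, n = 3), the histamine-forming enzyme Hdc 3.87 ± 0.10 (SD, n = 3) and the inducible nitric oxide synthase Nos2 3.01 ± 0.41 (SD, n = 3). Gch1, which makes the cofactor of Nos2, rose to 1.93 ± 0.14 (SD, n = 3), and Arg1, which competes for the same substrate, to 0.39 ± 0.28 (SD, n = 3), a call lost without set 1. Among genes of the inflammasome and cell death 10 of 14 rose and 2 fell (1 without set 1 or set 2), with the survival protein gene Bcl2a1d at 3.13 ± 0.08 (SD, n = 2) and the caspases Casp1 and Casp4 at 1.74 and 1.65. Co-stimulatory genes rose in 8 of 12 tested, with Cd83 at 3.90 ± 0.09 (SD, n = 3) and Cd274, the ligand of the inhibitory receptor PD-1, at 3.76 ± 0.27 (SD, n = 3). Of 22 surface and lysosome genes 11 rose and 4 fell, beside 14.9% and 18.5% of all genes tested. The rises were 8 without set 1 or set 2, and 7 on the arrays with treated RNA in Cy5 alone. Clec4e, a receptor for mycobacterial glycolipid, was highest at 2.16 ± 0.51 (SD, n = 3), and Sirpa, the receptor of the anti-phagocytic signal Cd47, was lowest at -1.65 ± 0.19 (SD, n = 3), while Cd47 itself rose to 1.55 ± 0.29 (SD, n = 3).

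Cell cycle genes were mostly lower than in untreated cells. Of 33 tested cell cycle genes 26 fell and 2 rose, with a median of -0.53. The median of the same list with LPS alone was -0.57. Rrm2, a subunit of ribonucleotide reductase, had -1.73, -1.68 and -0.96, thymidine kinase Tk1 -1.27, -1.65 and -1.32 and Cdc6, which loads the replicative helicase, -1.19, -1.14 and -1.73. Ccna2, Mki67 and E2f1 fell to -1.25, -1.22 and -1.07. The exceptions were Ccnd2, described with the comparison against LPS, and the inhibitor Cdkn1a at 0.72 ± 0.08 (SD, n = 3). Among the 10 largest falls was Fbxo5, which holds back the anaphase-promoting complex, at -2.49, -2.03 and -1.43. The largest falls of all under the naming rule were Pax6, a developmental transcription factor, at -2.95, -2.43 and -2.70 and Lyl1, a blood-cell transcription factor, at -2.50, -2.55 and -1.93. Lpin1, a phosphatidate phosphatase, had -2.48, -1.62 and -2.78, with set 2 the least changed. The others of the 10 were Rnf227 (-2.09), the gamma-secretase subunit Aph1b (-2.02), the kinesin Kifc3 (-2.01), Angpt2 (-1.88), the sorting nexin Snx24 (-1.87) and Mtfp1 (-1.81). The probes of Angpt2 lay far apart, at -2.89 and -0.87. All 10 were below 0 on all 6 arrays, which the naming rule required. With LPS alone their means ran from -2.395 to -1.384. None of the 10 passed against LPS alone, and with the set as a block 1 did.

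Metabolic and stress lists moved both ways, and their shares of calls are to be read beside the 33.4% called over all genes. In cholesterol biosynthesis 5 of 10 fell, led by Sqle, the squalene epoxidase, at -1.39 ± 0.15 (SD, n = 3), and 2 rose. The falls were 3 without set 1, and the rises were 1 whichever set was left out. Of 9 Nrf2 targets 2 rose and 3 fell. Gclc, which makes glutathione, fell to -1.64 ± 0.27 (SD, n = 3) and Osgin1 to -1.76 ± 0.23 (SD, n = 3), while the cystine carrier Slc7a11 rose to 1.13 ± 0.21 (SD, n = 3). The unfolded protein list held 3 rises and 4 falls among 16, with Dnajb9, a chaperone of the endoplasmic reticulum, at -1.48 ± 0.71 (SD, n = 3) and Herpud1 at -1.30 ± 0.15 (SD, n = 3). Its rises were 1 without set 1 or set 2. Of 14 respiration genes 1 passed, Idh3a at -0.48, and of 13 glycolysis and hypoxia genes 2 rose and 2 fell. Those rises were 1 whichever set was left out, and the falls 1 without set 2. The 9 tested housekeeping genes ranged from -0.20 to 0.62, and B2m and Ywhaz passed the test among them.

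Of 14 tested purinergic receptors and ectoenzymes 2 rose and 3 fell, a share near the 33.4% called over all genes. P2rx4, an ATP-gated channel, rose to 1.02 ± 0.18 (SD, n = 3) and P2ry6, a receptor for UDP, to 0.63 ± 0.37 (SD, n = 3). P2rx7, the channel that triggers inflammasome assembly, fell to -0.31 ± 0.14 (SD, n = 3) and Panx1, through which ATP leaves cells, to -0.65 ± 0.20 (SD, n = 3). Ada, which breaks down adenosine, fell to -0.24 ± 0.06 (SD, n = 3). The call of P2rx7 was lost without set 1 or set 2 and that of Ada whichever set was left out, and the list held 1 fall without set 1 or set 2. On the arrays with treated RNA in Cy3 alone the list held 1 rise and 0 falls, so the call of Panx1 was lost there too. None of the 14 passed against LPS alone, where few genes of any kind did. Among 19 calcium and cAMP responsive genes 6 rose and 6 fell, though the falls were 1 without set 1 and 3 without set 2 or set 3. The rises included the osteoclast fusion gene Ocstamp at 2.94 ± 0.18 (SD, n = 3) and the phosphodiesterase Pde4b at 2.47 ± 0.53 (SD, n = 3).

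**Figure D2:**
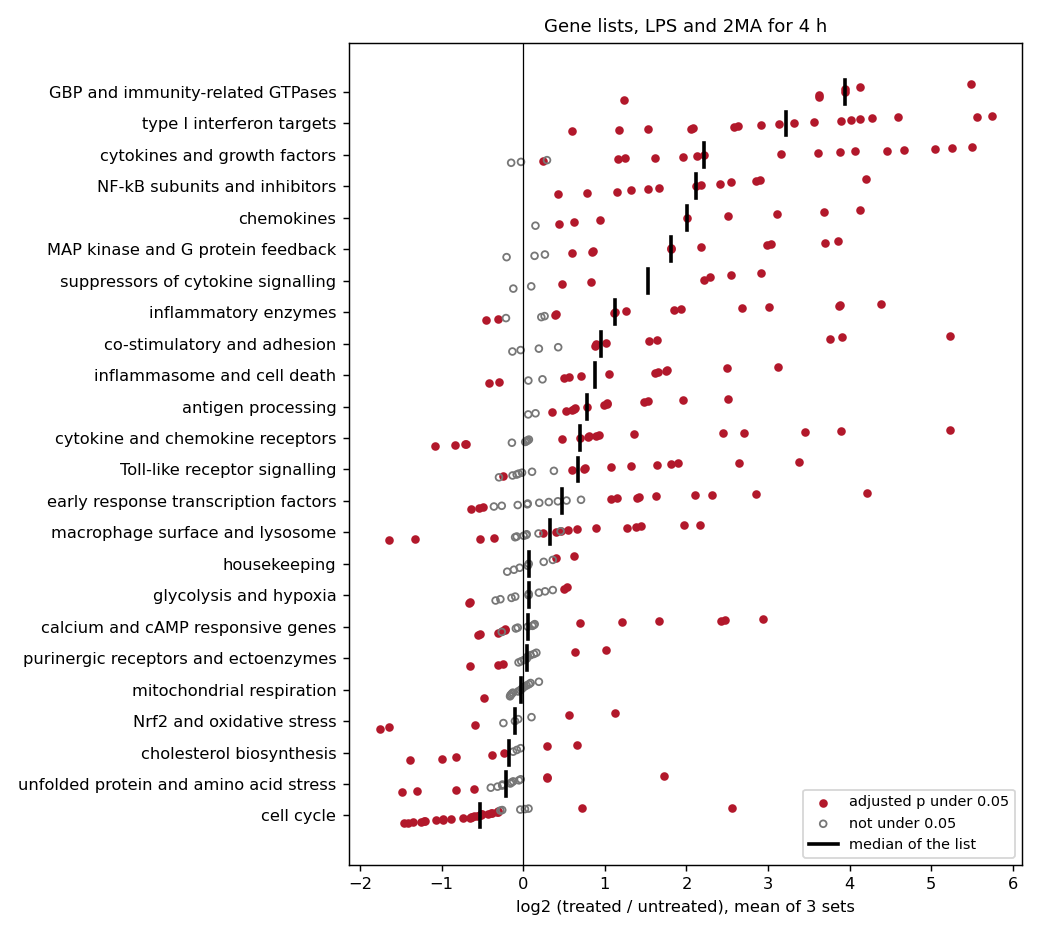
All tested members of 24 gene lists after 4 h of LPS and 2MA, as the mean log2 ratio of treated to untreated RNA over 3 sets. Filled red points had an adjusted p under 0.05, open grey points did not, and black bars are list medians. The lists run from the GBP and immunity-related GTPases, with a median of 3.94, to the cell cycle, with -0.53.

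In the fit without the set as a block, adding 2MA to LPS gave a small set of genes a different 4 h response, mostly a higher one. The difference between LPS with 2MA and LPS alone passed in 41 of 11593 genes (0.354%), 33 higher (0.285%) and 8 lower (0.069%), and 664 genes had an unadjusted p under 0.05. Sets of the same number deviated together in both groups (correlations of 0.38 to 0.73). With the set as a block, 208 genes passed, 138 higher and 70 lower, and they included all 41. The count depended on each set: it was 10 without set 1, 6 without set 2 and 13 without set 3. Of the 41, 35 have a gene name, 28 higher and 7 lower. In 34 of these 35 the 3 sets of one treatment did not overlap the 3 of the other, with Prnp the exception. The 35 were called by a test of this same difference, so the separation adds no support. The share of all genes that separate in this way was not counted.

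Ccnd2, a D-type cyclin that drives entry into the cell cycle, showed the largest difference. It had 3.10, 3.09 and 1.49 with LPS and 2MA, 1.14, 0.85 and 0.33 with LPS and 0.49, 0.27 and 0.06 with 2MA alone. Sets 1 and 2 were level and set 3 was lower, and every joint value lay above every LPS value. The difference was 1.79 (SE 0.30, adjusted p = 0.0023), a 3.45-fold gap, and both probes showed it (1.50 and 2.08). The call was lost without set 2 and in a fit on the 2 groups alone. Acp5, the tartrate-resistant acid phosphatase of osteoclasts, had 2.71, 2.54 and 2.00 against 1.16, 0.69 and 0.89, with 0.49, 0.05 and 0.43 for 2MA alone. Its difference of 1.51 (SE 0.17, adjusted p = 7.0e-07) had the smallest adjusted p of the 15 named. The call of Acp5 was lost in a fit on the 2 groups alone (limma, adjusted p = 0.068). Tslp, an epithelial cytokine that primes dendritic cells, had 2.23, 2.18 and 1.98 against 0.86, 0.82 and 0.76, and 0.19, -0.01 and -0.08 with 2MA alone. The groups lay wide apart relative to their spread, with a difference of 1.32 (SE 0.18, adjusted p = 7.0e-05). It alone of the 15 kept its call under all 11 other settings in which single genes were followed. The fit on the 2 groups alone lost the other 14 calls.

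Other genes that were higher with 2MA included secreted and signalling proteins. Tnc, the matrix glycoprotein tenascin C, had 1.55, 3.09 and 3.25 against 0.60, 1.48 and 1.19. Set 1 was the low one in both groups, and the difference was 1.54 (SE 0.33, adjusted p = 0.025), lost without set 2 or set 3. Dkk2, a modulator of Wnt signalling, had 1.87, 1.19 and 1.33 against 0.33, -0.34 and 0.10. It was near 0 with LPS and with 2MA alone (0.39, -0.08 and 0.19) and above 1 in all 3 sets with both, with a difference of 1.43 (SE 0.23, adjusted p = 0.0017). The call of Dkk2 was lost in the fit on the 2 groups alone. Popdc2, a cAMP-binding membrane protein, differed by 1.28 (SE 0.27, adjusted p = 0.025), the F-box protein gene Fbxo15 by 1.14 (SE 0.27, adjusted p = 0.043) and the co-chaperone Dnajb4 by 1.11 (SE 0.25, adjusted p = 0.027). The call of Popdc2 was lost without set 1 or set 2, and those of Fbxo15 and Dnajb4 whichever set was left out. Dnajb4 also had 1.46, 0.72 and 0.59 with 2MA alone, beside 1.46, 1.50 and 1.64 with both ligands. Timp1, an inhibitor of metalloproteinases, was higher by 1.01 (SE 0.19, adjusted p = 0.008). Stat5a, a transcription factor of cytokine receptors, was higher by 1.01 (SE 0.22, adjusted p = 0.025), and Cish, an inhibitor that STAT5 is known to induce, by 1.00 (SE 0.17, adjusted p = 0.0025). Cish was at 3.15, 2.62 and 2.98 with both ligands and 2.08, 1.58 and 2.10 with LPS. Timp1, Stat5a and Cish lie outside the 8 largest differences, and Timp1 and Stat5a are in no list and were chosen after their values were seen. The call of Timp1 was lost without set 3, that of Cish without set 1 and that of Stat5a whichever set was left out.

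The 7 named genes lower with 2MA moved by less. Samsn1, an adaptor protein of immune cells, had 0.61, 0.40 and 0.19 against 1.23, 1.44 and 0.91, a difference of -0.79 (SE 0.15, adjusted p = 0.0047). Rab20, a GTPase of endosomes, had 1.14, 1.09 and 1.22 against 2.24, 2.13 and 1.44, a difference of -0.78 (SE 0.18, adjusted p = 0.03). In both, every LPS value lay above every value with both ligands. The call of Samsn1 was lost without set 2, and that of Rab20 without set 1 or set 2. Fasn, the fatty acid synthase, went the other way against untreated cells, falling further with both ligands: -1.38, -1.27 and -1.06 against -0.70, -0.44 and -0.31, with -0.88, -0.29 and -0.35 for 2MA alone. The rest were Wdfy3, an adaptor of selective autophagy (-0.69), 1700017B05Rik (-0.67), Pycrl (-0.63) and the tubulin gene Tuba4a (-0.58). Of these 7 calls, none survived the fit on the 2 groups alone or the arrays with treated RNA in Cy3 alone. Those of Fasn, Wdfy3, 1700017B05Rik, Pycrl and Tuba4a were also lost whichever set was left out.

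**Figure D3:**
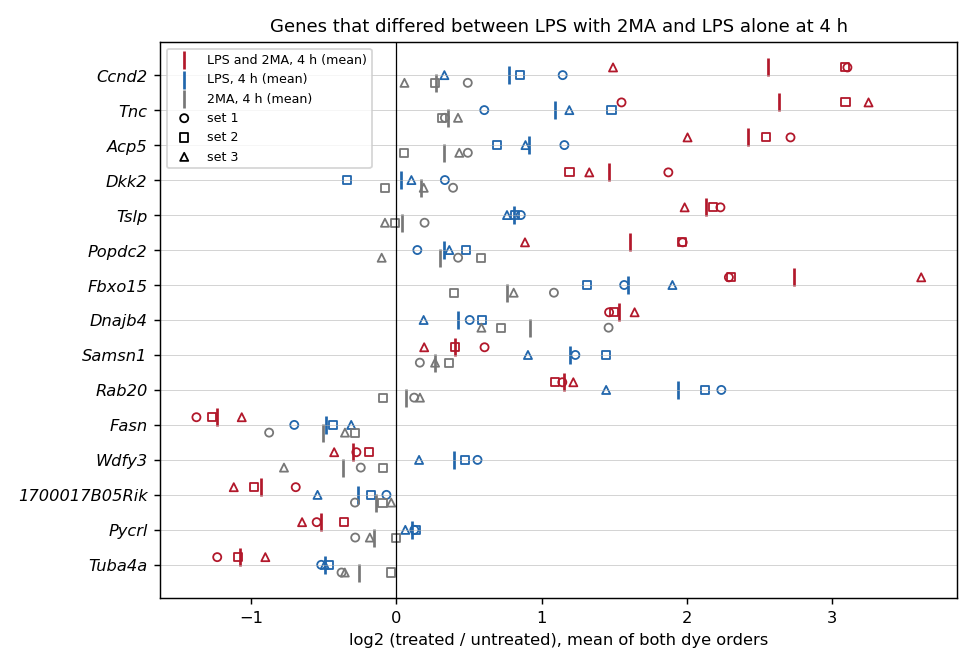
The 15 named genes with the largest differences between LPS with 2MA (red) and LPS alone (blue) at 4 h, with 2MA alone (grey), as log2 of treated over untreated RNA. Open symbols are the 3 sets and vertical bars their means. The genes were chosen for this difference, and no red set of them overlaps the blue ones. The 2MA values of Tslp lie between -0.08 and 0.19.

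Promoters of the named genes that differed from LPS were searched in the same way. The ISRE and NF-kB cores lay in none of 22 promoters of genes higher than with LPS and in none of 5 of those lower, against 3.4% and 0.516% of all, shares that give about 1 match or fewer in so few promoters. With the ISRE core shortened by 1 base, a form chosen after seeing the data, 5 of the 22 held it (22.7%, against 7.73% of all), so the direction depends on the form searched. AP-1 lay in 2 of the 22 (9.09%, against 7.27%) and the cAMP response element in 1 (4.55%, against 2.33%). Of the 2 largest differences in each direction the table held 3, Tnc (chr4:64047016-64047265, - strand, the first of 2 listed starts), Samsn1 (chr16:75909267-75909516, - strand) and Rab20 (chr8:11478641-11478890, - strand). They are printed to set beside Il6, and none of the 4 sequences was found in them.
Tnc: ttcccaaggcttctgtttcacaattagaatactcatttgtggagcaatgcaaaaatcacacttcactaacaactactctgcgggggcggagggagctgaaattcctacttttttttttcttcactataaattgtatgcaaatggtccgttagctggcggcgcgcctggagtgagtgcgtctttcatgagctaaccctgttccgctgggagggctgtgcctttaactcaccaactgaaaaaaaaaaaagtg
Samsn1: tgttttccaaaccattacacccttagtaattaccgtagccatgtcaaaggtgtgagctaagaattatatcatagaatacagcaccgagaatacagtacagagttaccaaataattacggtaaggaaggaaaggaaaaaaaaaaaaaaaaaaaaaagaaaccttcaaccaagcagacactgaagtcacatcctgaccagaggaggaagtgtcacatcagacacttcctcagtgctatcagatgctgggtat
Rab20: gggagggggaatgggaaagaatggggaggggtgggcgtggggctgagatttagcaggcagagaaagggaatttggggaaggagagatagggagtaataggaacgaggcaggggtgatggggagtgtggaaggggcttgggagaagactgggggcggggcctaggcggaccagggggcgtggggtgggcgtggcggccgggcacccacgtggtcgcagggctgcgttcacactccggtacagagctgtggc

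The share called against LPS was 0.354% over all genes, so that no call is the usual outcome for a short list. None of the 18 type I interferon targets, 7 GTPases, 15 antigen-processing genes, 13 NF-kB genes or 9 chemokines passed against LPS without the block. With the block Nfkb2, Nfkbie and the chemokine Ccl22 passed, all higher. The median differences of these lists were 0.23, 0.25, 0.18, 0.39 and 0.26, beside -0.01 over all genes. Among cytokines Tslp alone passed, with a list median of 0.42. With the set as a block, 6 of the 19 cytokines passed, all higher: Tslp, Il1a, Ifnb1, Il6, Lif and Il18. The probes of Lif disagreed, with differences from LPS of 1.38 and -0.08. Il1a had 4.79, 4.66 and 5.70 against 2.90, 3.32 and 3.99, a difference of 1.65 (SE 0.40, adjusted p = 0.053), with adjusted p = 0.0039 in the block. Ifnb1 differed by 1.47 (SE 0.40, adjusted p = 0.12), with 0.011 in the block, and Il6 by 1.00 (SE 0.26, adjusted p = 0.09), with 0.022. The sets of Il1a, Ifnb1 and Il6 with both ligands all lay above those with LPS. Nos2, by contrast, had 3.40, 3.05 and 2.59 against 3.42, 3.09 and 2.54, and the difference was under 0.01 with an SE of 0.20.

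Other genes passed only with the block. Rcan1, an inhibitor of calcineurin that calcium induces, had 1.67, 1.48 and 1.83 with both ligands against -0.05, -0.04 and 0.28 with LPS. Its 2MA values spread widely, at 1.07, 0.08 and -0.45, and the difference of 1.60 (SE 0.46, adjusted p = 0.14) reached adjusted p = 0.045 in the block. Cd83 had 3.81, 3.93 and 3.98 against 2.89, 2.66 and 2.52 (adjusted p = 0.062, 0.0077 in the block). On the lower side, Hmox1, the haem-degrading enzyme, had 0.03, -0.07 and -0.69 against 0.51, 0.41 and 0.20 (adjusted p = 0.4, 0.0088 in the block). Sirpa had -1.61, -1.49 and -1.86 against -1.05, -0.72 and -1.34 (adjusted p = 0.062, 0.014 in the block). In each of these 4 genes no set of one treatment overlapped the other, though genes named for passing with the block would tend to separate.

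Without the set as a block, few genes deviated from the sum of the single responses, at a median SE of 0.20. The deviation from the sum of LPS and 2MA, each alone at 4 h, passed in 7 of 11593 genes (0.0604%), 2 above and 5 below, and 422 had an unadjusted p under 0.05. With the set as a block 55 passed, 26 above and 29 below, including all 7. The count was 3 without set 1, 0 without set 2 (403 at an unadjusted p under 0.05, limma) and 6 without set 3. The 2MA group enters this comparison, and its dye orders correlated at -0.10, 0.40 and -0.25 in sets 1, 2 and 3 before turning. Dye orders that agree give a negative value here. Those of sets 1 and 3 thus agreed weakly, and those of set 2 went against each other. The reason was not tested. Tslp exceeded the sum by 1.28 (SE 0.22, adjusted p = 0.003) and Acp5 by 1.18 (SE 0.21, adjusted p = 0.003). All 7 calls were lost without set 2, those of Tslp and Tmem189 whichever set was left out, and those of Odc1 and Stap1 also without set 1. This comparison shares its joint and LPS samples with the one above. Below the sum were Tmem98 (-1.38), Odc1 (-1.30), Stap1 (-1.18), Samsn1 (-1.06) and Tmem189 (-0.79). Odc1, the first enzyme of polyamine synthesis, had 2.51, 2.60 and 2.98 with both ligands, 2.81, 2.78 and 2.88 with LPS and 1.75, 1.06 and 0.70 with 2MA. All 9 values of Odc1 lay above 0, and those with both ligands overlapped those with LPS. Tmem98, a membrane protein gene, had 0.79, 0.20 and 0.22 with both, 1.24, 0.77 and 0.52 with LPS and 1.19, 0.95 and 0.68 with 2MA. Stap1, an adaptor of kinase signalling, had 0.98, 0.87 and 1.29, 1.35, 1.30 and 1.17 and 1.23, 0.92 and 0.71 in that order.

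Between 2 h and 4 h of the joint treatment, interferon targets and GTPases were among the genes that gained, and early response genes among those that lost. The difference passed in 994 of 11593 genes (8.57%), 583 higher at 4 h (5.03%) and 411 lower (3.55%), with a 2-fold difference in 281. With the set number as a block 1401 passed, including all 994. Without set 2 the count was 595, and it was 663 without set 1 and 710 without set 3. All 7 GTPases were higher at 4 h, as were 12 of 18 interferon targets and 11 of 15 antigen-processing genes. Their median differences were 3.08, 1.48 and 0.48, beside -0.02 over all genes. Cytokines were higher in 4 of 19, NF-kB genes were lower in 1 of 13, and early transcription factors were lower in 8 of 22 and higher in 3. With the block 6 cytokines were higher. The early factors lower at 4 h were 4, 3 and 2 without sets 1, 2 and 3, and those higher were 1 without set 2. Without set 2 the antigen-processing genes were higher in 6, and the NF-kB fall was lost without set 1 or set 2. Cell cycle genes were lower at 4 h in 11 of 33, with Ccnd2 the one that was higher. These falls were 7 without set 1 and 4 without set 2. LPS alone moved in the same direction, though its difference between these times was not tested. Its list medians at 2 h and 4 h were 0.99 and 3.52 for the GTPases and 1.06 and 2.94 for the interferon targets. For the early transcription factors they were 0.64 and 0.29. LPS alone at 2 h had the same LPS and LPS-binding protein, with 6 arrays in 3 sets.

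Iigp1, an immunity-related GTPase, showed the largest gain with both ligands. Its sets had 0.64, 0.09 and 0.04 at 2 h and 4.37, 4.18 and 3.28 at 4 h, a difference of 3.69 (SE 0.30, adjusted p = 2.4e-11). Ms4a4c, a membrane protein gene induced by interferon, had 0.27, 0.75 and 0.09 and then 4.12, 4.29 and 3.55, and Cfb, complement factor B, 0.70, 0.09 and -0.01 and then 3.48, 3.59 and 3.14. No set of these 3 genes exceeded 0.75 at 2 h, and all were above 3 at 4 h. Gbp8, Slfn1, Gbp3, Tgtp1 and Il6 completed the 8 largest gains, with differences of 3.27, 3.23, 3.12, 3.08 and 2.98. Il6 had 2.75, 2.56 and 2.23 at 2 h against 5.24, 5.43 and 5.82 at 4 h, and a mean of 0.36 at 1 h. Il1b and Ifnb1 had 5.09, 4.86 and 4.80 and 4.41, 4.96 and 5.20 at 2 h, and their differences from 4 h did not pass (adjusted p = 0.69 and 0.89).

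The largest losses were in genes induced early. Egr2, a zinc finger transcription factor, had a mean of 5.40 at 1 h, 2.17, 2.19 and 3.97 at 2 h and 0.88, -0.10 and 1.35 at 4 h, a difference of -2.07 (SE 0.64, adjusted p = 0.033) whose call was lost whichever set was left out. Egr3 had 2.75 at 1 h, 1.78, 2.09 and 2.53 at 2 h and 0.30, 0.20 and 0.44 at 4 h. Nr4a1, an orphan nuclear receptor, had 3.54 at 1 h, 0.92, 2.49 and 1.70 at 2 h and -0.17, 0.21 and -0.24 at 4 h. None of these 3 genes passed against untreated cells at 4 h. Tsc22d1 had 1.64, 1.51 and 1.88 and then -0.41, -1.06 and -0.42, and Herpud1, which helps clear misfolded proteins, 1.18, 0.26 and 0.72 and then -1.17, -1.26 and -1.47. In both, all sets lay above 0 at 2 h and below 0 at 4 h. Slc20a1, a phosphate carrier, Gadd45a, a stress response gene, and Mybpc3 differed by -1.81, -1.68 and -1.63.

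**Figure D4:**
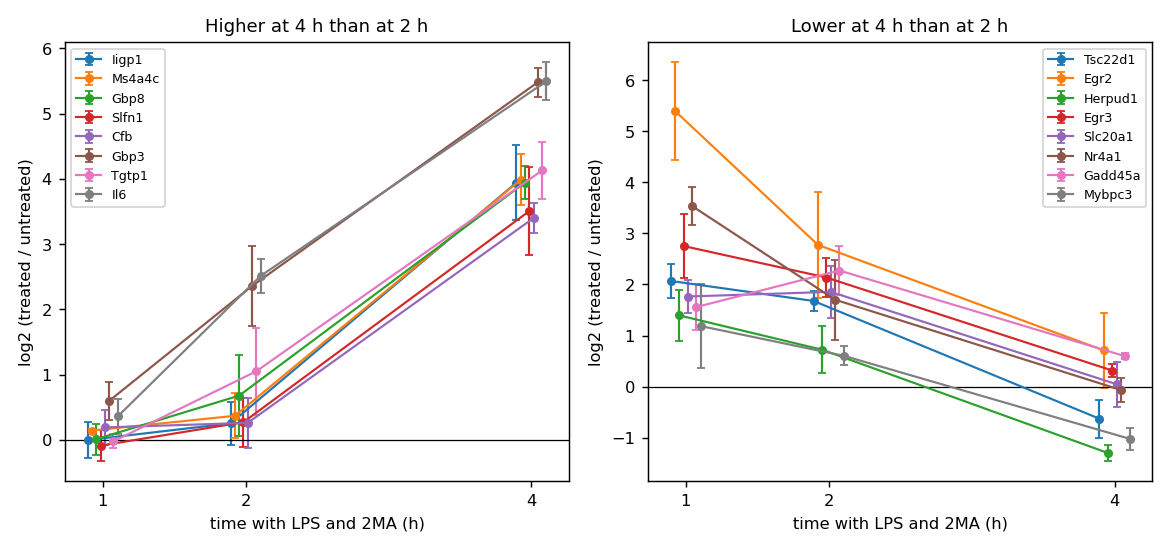
Mean log2 ratio of treated to untreated RNA after 1, 2 and 4 h of LPS and 2MA for the 8 genes with the largest gain (left) and the 8 with the largest loss (right) between 2 h and 4 h. Points are means of the sets, bars are SD, and points are shifted sideways so that they do not cover each other. Egr2 goes from 5.40 at 1 h to 0.71 at 4 h, while Iigp1 goes from near 0 to 3.94.

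The sets did not differ alike in every list. The median of the GTPases at 4 h was 4.22, 3.82 and 3.77 in sets 1, 2 and 3, and with LPS alone 4.11, 3.66 and 2.98. For the interferon targets it was 3.17, 3.66 and 3.20 with both ligands and 3.10, 3.46 and 2.69 with LPS, and for the cytokines 2.23, 2.18 and 2.61 and 2.64, 2.23 and 2.83. Set 3 was thus the lowest for the GTPases in both treatments and the highest for the cytokines in both. A set median covers only members with a value in all 3 sets, which were 19 cytokines with both ligands and 18 with LPS. Between these unlike groups of members the median was lower with both ligands in each set. The median of the members' own differences was 0.42. The middle member, Il10, differed by -0.46 (adjusted p = 0.96). 2MA alone gave small positive medians for the interferon targets, 0.78, 0.78 and 0.29, with set 3 lowest. Ifit2 with 2MA alone had 1.81, 1.16 and 0.30, and Cmpk2 1.32, 0.94 and 0.46. At 2 h of the joint treatment the medians of the interferon targets were 1.43, 1.96 and 0.81, with set 3 lowest. What the sets share was not tested beyond these values.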

How the data were processed

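The deposited values are log2 ratios of Cy5 over Cy3 per probe, as the authors made them. The normalization and scanner settings are not given in the sources used here, and signal over background is unknown, so the number of arrays limits the precision. Channels were assigned from the labels of each dye, and the sign was turned to treated over untreated. An exact 0 was read as no measurement. Both dye orders were required for a set value. Of 16281 probes, 13698 had a value in at least 2 of 3 sets of every group and were kept, and 2583 were left out. The platform annotation gave 1 gene for 13738 of the 16281 probes, several for 52 and none for 2491. Probes of 1 gene were averaged, which left 11593 genes tested, of which 1838 are probes with no single gene name.

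A mean per group was fitted over 48 set values of 16 groups with limma 3.58.1 in R 4.3.3 (lmFit, contrasts, eBayes), with two-sided tests and Benjamini-Hochberg adjustment over all genes at 0.05. The script was checked on simulated data in which set values were drawn independently, so the check does not cover deviations that sets share. Same-numbered sets deviated together in every pair of groups compared, with correlations of at least 0.24. The labels do not say what such sets share, and whether it was the untreated RNA was not tested. The main fit, which gives every SE and adjusted p unless a block is named, leaves this pairing out. Fits with the set as a block use a random term against untreated cells. They are given where they move a count of calls over 1.5 times or change the call of a gene named for it. The genes named are the 20 largest rises and 10 largest falls of one sign on all 6 arrays, the 8 largest differences each way per comparison, and list members, some chosen from among these for their role. The members, lists and rules were chosen with earlier results of these data known.

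Promoters were searched for 4 motifs. The ISRE and NF-kB cores were shortened by 1 base once the values were at hand, to make them easier to print, and were then put back to their first form, which gives the values of the report. The counts with the shorter forms are given with the processing alternatives.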

Additional observations from a re-analysis of the deposited data

Results flagged for a closer look

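The response to LPS and 2MA differed between 2 h and 4 h in 994 genes by the limma test of the difference itself, 583 higher at 4 h and 411 lower. The 4 h response differed between LPS with 2MA and LPS alone in 41 genes by the same kind of test, 33 higher with 2MA and 8 lower. Of the 30 genes with the largest changes against untreated cells, none had 1 of its 6 arrays standing apart from the others by Dixon's test, where chance alone gives about 1 in 20.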

How the results depend on the processing

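The count against untreated cells stayed between 3066 and 4439 over all alternatives, and all 30 named genes kept their direction and call. With set number as a random block within time it was 3901. That block moved the counts of calls in the gene lists against untreated cells by at most 1 in each direction. The difference from LPS alone was more dependent on the settings: 3 genes in a fit on the compared groups only, 22 with treated RNA in Cy5 only, 5 in Cy3 only, 6 to 13 with a set left out, and 208 with the replicate block. The difference from 2 h passed in 526 genes in a fit on the compared groups only, 583 with Cy3 only, and 595 to 710 with a set left out, against 1401 with the block. The deviation from the sum passed in 13 with exact zeros kept, 1 in a fit on the compared groups only, 51 with Cy5 only, 13 with each probe on its own, 0 to 6 with a set left out (limma, 403 at an unadjusted p under 0.05 without set 2, where none passed), and 55 with the block. The cause of these changes was not tested, beyond the fewer samples in the smaller fits. Of 246 list members called against untreated cells, 37 lost the call without at least 1 set. Cd68, Nfkbib, Ccne1 and Sdf2l1 changed sign with 1 dye order alone, and of these Sdf2l1 passed in the other direction, at 0.76 with treated RNA in Cy3.

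With the ISRE core shortened by 1 base, a form chosen after seeing the data, 5 of 22 promoters of genes higher than with LPS held it (22.7%), where the form first listed was in none. The share among all 7757 promoters rose with it, from 3.4% to 7.73%. The 6 interferon targets and 4 GTPases were the same number under both forms, and the shorter NF-kB core lay in 1.13% of promoters. The report keeps the form first listed.

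Of 167 named genes with more than 1 probe, 23 had probe means over 1 apart on the log2 scale, and 5 of these had opposite signs.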
